A study of Homo sapiens with 8 samples.

Results

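The 957 regions described here were stretches of opened DNA far from any protein-coding gene in HEK293T cells, an established human embryonic kidney line. They came from KAS-seq, in which N3-kethoxal reacts with unpaired guanines in living cells so that DNA with a separated strand can be pulled out and sequenced. The peaks of the 2 control libraries on chromosomes 1 to 22 and X were merged, and 15177 merged regions were overlapped by a peak of both. A region was taken as far where its midpoint lay more than 5 kb from every RefSeq protein-coding gene and more than 250 bp from every tRNA, snRNA and snoRNA gene, which left 6.31% of the regions. Of the 957, 226 had their midpoint inside a long non-coding RNA (lncRNA) gene and 731 did not. The control cells received N3-kethoxal (5 mM, 10 min) and no vitamin C before it, and the vitamin C cells were kept for 10 min in 0.5 mM vitamin C first, with 2 labelled libraries in each group. Vitamin C is ascorbic acid, a reducing agent and a cofactor of dioxygenase enzymes. The 4 unlabelled input libraries of the series were not analysed here, and the labels do not say whether replicates were separate cultures, so the p-values below measure only the spread between these libraries. The cell line field carries a different number in several labels, whereas all titles name HEK293T, which was followed.

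RNA polymerase II opens a short bubble of DNA as it moves, and it commonly travels on for kilobases past the site where the messenger RNA is cleaved before it lets go. Long non-coding RNAs are made by the same polymerase, and some of them carry microRNAs or snoRNAs, hold nuclear bodies together or act on a whole chromosome. RNA polymerase III makes other short RNAs, among them the 5S ribosomal RNA, the Y RNAs and the vault RNAs.

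Because the regions are positions in the genome, the sequence at some of them is shown first. A RefSeq promoter window (GRCh38.p14) runs from 250 bases before to 50 after an annotated start. That start need not be the outermost end of the gene, and the MALAT1 window lies inside the gene's span (chr11:65497738-65506516). Such windows of 27 lncRNA genes lay partly or wholly under 25 of the 957 regions. Of these windows, 6 are printed 5′ to 3′ on the gene's own strand. The first 3 lay wholly under control peaks and their regions were also met by both vitamin C lists, where met means overlapped by at least 1 bp. They belong to MALAT1 (chr11:65498795-65499094, plus strand), an abundant RNA of nuclear speckles, MIR222HG (chrX:45770218-45770517, minus strand), the host of miR-221 and miR-222, and DLEU2 (chr13:50081992-50082291, minus strand), the host of the miR-15a and miR-16-1 genes. The other 3 lay under regions met by neither vitamin C list. They belong to MEF2C-AS2 (chr5:88675968-88676267, plus strand), LOC124903558 (chr15:92809835-92810134, minus strand) and FIRRE (chrX:131830594-131830893, minus strand), a lncRNA involved in the organisation of the X chromosome in the nucleus. Capitals mark GGGCGG (the GC box), CCAAT and TATAAA, on either strand.
MALAT1 promoter: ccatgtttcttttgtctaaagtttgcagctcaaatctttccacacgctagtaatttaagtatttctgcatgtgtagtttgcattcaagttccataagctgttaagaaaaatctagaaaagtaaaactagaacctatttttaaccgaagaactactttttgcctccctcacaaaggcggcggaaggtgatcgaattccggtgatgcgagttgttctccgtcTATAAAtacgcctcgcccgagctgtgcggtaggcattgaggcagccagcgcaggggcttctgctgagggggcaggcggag
MIR222HG promoter: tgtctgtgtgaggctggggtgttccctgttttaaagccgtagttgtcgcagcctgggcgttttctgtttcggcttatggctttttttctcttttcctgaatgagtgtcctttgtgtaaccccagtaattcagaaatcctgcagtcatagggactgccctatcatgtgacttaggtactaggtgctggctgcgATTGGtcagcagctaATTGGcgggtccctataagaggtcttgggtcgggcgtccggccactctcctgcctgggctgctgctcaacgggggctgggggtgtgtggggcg
DLEU2 promoter: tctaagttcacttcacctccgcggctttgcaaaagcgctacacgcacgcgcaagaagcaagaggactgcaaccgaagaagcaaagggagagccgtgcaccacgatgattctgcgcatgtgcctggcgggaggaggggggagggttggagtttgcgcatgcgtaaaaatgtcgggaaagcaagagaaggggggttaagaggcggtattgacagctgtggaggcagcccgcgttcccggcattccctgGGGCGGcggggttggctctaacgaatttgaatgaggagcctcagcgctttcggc
MEF2C-AS2 promoter: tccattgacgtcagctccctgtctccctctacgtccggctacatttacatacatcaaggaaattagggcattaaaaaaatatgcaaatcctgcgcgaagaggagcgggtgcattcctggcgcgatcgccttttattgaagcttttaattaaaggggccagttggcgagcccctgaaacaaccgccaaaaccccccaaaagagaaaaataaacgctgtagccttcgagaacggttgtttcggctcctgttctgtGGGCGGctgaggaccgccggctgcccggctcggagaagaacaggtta
LOC124903558 promoter: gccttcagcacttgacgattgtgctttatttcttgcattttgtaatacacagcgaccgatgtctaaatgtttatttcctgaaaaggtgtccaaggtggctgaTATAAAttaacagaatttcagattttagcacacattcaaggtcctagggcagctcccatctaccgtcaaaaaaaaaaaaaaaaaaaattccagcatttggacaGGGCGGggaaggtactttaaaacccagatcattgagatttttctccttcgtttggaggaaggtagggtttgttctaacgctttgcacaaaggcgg
FIRRE promoter: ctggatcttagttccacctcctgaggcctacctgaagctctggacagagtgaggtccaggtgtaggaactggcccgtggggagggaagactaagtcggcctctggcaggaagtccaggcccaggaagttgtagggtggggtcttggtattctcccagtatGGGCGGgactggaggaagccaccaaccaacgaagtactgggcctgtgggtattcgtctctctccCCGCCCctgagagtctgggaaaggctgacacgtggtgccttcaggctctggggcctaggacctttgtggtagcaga

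GGGCGG or its complement was in 15 of the 27 windows under far regions (55.6%) and in 14.2% of the 6669 lncRNA promoter windows that lie equally far from protein-coding genes. CCAAT was in 12 of the 27 (44.4%, against 36.9%) and TATAAA in 4 (14.8%, against 19.3%). The windows under regions had a median GC content of 54.7% and a median of 11 CpG dinucleotides, and all far windows had 46.0% and 3. The 27 windows were thus richer in GC and CpG than lncRNA promoter windows far from genes in general. Some of them, such as those of ENEMAL and PCHILR, had 0 bases under peaks of both controls. The windows of DLEU1 and DLEU2 overlap on opposite strands, as do those of LINC01572 and ZFHX3-AS1, so their shared bases are counted for each gene. GGGCGG was in 5 of the 11 windows under regions met by both vitamin C lists and in 5 of the 9 under regions met by neither. The printed MEF2C-AS2 window was covered by peaks of both controls over 161 of its bases and the FIRRE window over 21, so the FIRRE region, which lies inside the gene, only touched that window. These matches describe letters in a window and were not tested as binding sites.

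Mature microRNAs are shown for 2 of the 5 microRNA host genes with far regions, MIR17HG and MIR222HG. Bases 2 to 8, the seed, are in capitals. The hairpins of MIR17, MIR18A, MIR19A, MIR20A, MIR19B1 and MIR92A1 lay in a gap between regions of MIR17HG on chromosome 13, and MIR222 lay under a region of MIR222HG with MIR221 in the gap beside it. By seed they fall into the groups AAAGUGC (miR-17-5p and miR-20a-5p), AAGGUGC (miR-18a-5p), GUGCAAA (miR-19a-3p and miR-19b-3p), AUUGCAC (miR-92a-3p) and GCUACAU (miR-221-3p and miR-222-3p).
miR-17-5p: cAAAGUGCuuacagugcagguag
miR-20a-5p: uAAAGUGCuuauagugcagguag
miR-18a-5p: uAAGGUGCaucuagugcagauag
miR-19a-3p: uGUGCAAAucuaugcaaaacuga
miR-19b-3p: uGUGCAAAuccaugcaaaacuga
miR-92a-3p: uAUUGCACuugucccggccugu
miR-221-3p: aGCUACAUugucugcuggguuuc
miR-222-3p: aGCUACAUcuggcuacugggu

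Fewer peaks far from protein-coding genes were called after vitamin C, and the log2 ratio was close to that of all peaks. Placed peak by peak, the control libraries held 2042 and 1618 far peaks and the vitamin C libraries 581 and 651. Both vitamin C libraries were below both controls, with means of 1830 ± 300 (SD, n = 2) and 616 ± 49.5 (SD, n = 2) and a log2 ratio of -1.57, beside -1.47 for all peaks. The exact two-sided permutation p was 0.333, which is the smallest that 2 libraries against 2 can give. Far peaks covered 1.02 and 0.862 Mb in the controls, then 0.312 and 0.327 Mb with vitamin C (log2 ratio -1.56, exact p = 0.333), at mean widths of 500 and 533 bp and of 537 and 502 bp. Of each library's peaks, far peaks made up 6.73% and 6.71% in the controls, then 5.92% and 6.58% with vitamin C. That difference of -0.471 percentage points (exact p = 0.333) rested on the small RNA rule, since it was 0.733 when peaks beside tRNA, snRNA and snoRNA genes were kept, and it was 0.0158 for peaks more than 20 kb from a gene. Median widths overlapped between the groups, with 351 and 375 bp in the controls, then 359 and 353 bp with vitamin C, a difference of -7.00 bp (exact p = 1) that was -179.5 bp with lists of equal length (exact p = 0.333). Depth, recovered from each list's fold and p-values, came to 0.817 and 0.849 labelled fragments at an average position for the controls and to 1.23 and 0.871 for the vitamin C libraries, so that neither vitamin C library was the shallower, and its part in these counts was not tested.

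**Figure D1:**
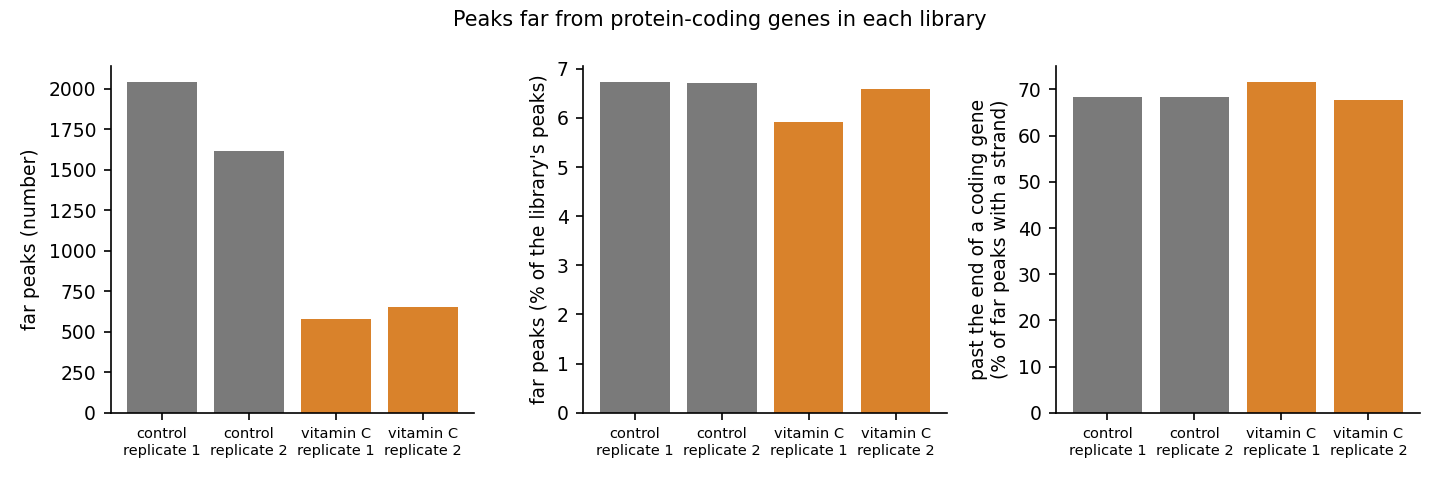
Bars give, for each of the 4 labelled libraries, the number of peaks far from protein-coding genes (left), their share of the library's peaks in percent (middle) and the percent of them past the end of the nearest protein-coding gene, among those whose gene has a known strand (right). The number is lower in both vitamin C libraries (581 and 651) than in the controls (2042 and 1618), whereas the past-end share lies between 67.7% and 71.6% in all 4.

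Of the 957 control regions, 446 (46.6%, 95% Clopper-Pearson interval 43.4 to 49.8) were met by neither vitamin C list, where 42.0% of all 15177 control regions were. The vitamin C lists were much shorter, with 9816 and 9896 peaks against 30351 and 24111 in the controls, and with lists of equal length neither met 16.1% of the far control regions then found, beside 13.3% of all regions. As deposited, both vitamin C lists met 296 of them (30.9%, 28.0 to 34.0, against 33.1% of all regions) and 215 were met by 1 list (22.5%, against 24.9%). Taken singly, vitamin C replicate 1 met 41.6% and replicate 2 met 42.7%, against 46.4% and 44.7% of all regions. Intervals here cover counting error only, and neighbouring regions are not independent. The share met by neither list was thus above that of all control regions, and more than 50% of the far regions were met by at least 1 list. Of the 9927 control regions inside a protein-coding gene, 43.8% were met by neither list and 30.4% by both. Of the 4086 within 5 kb outside one, these shares were 38.6% and 37.2%. In the share met by both, the far regions were thus close to the regions inside genes.

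In the controls the far regions were also weaker than all control regions, but close to those inside protein-coding genes. Control strength is the percentile that a region's best peak holds in its own list by the authors' fold enrichment, averaged over the 2 controls. Its median was 55.6 for the far regions and 58.8 for all. For regions inside a protein-coding gene it was 56.1, and for those within 5 kb outside one 64.7. When the other 14220 regions were weighted to the same strengths over 10 bins, 30.6% of them were met by both lists, 0.35 points below the 30.9% of the far regions. The difference at equal strength was -2.50 points in vitamin C replicate 1 alone and 0.47 in replicate 2 alone, so its sign was not the same in both libraries. For regions met by neither list it was 2.38 points, with 46.6% of the far regions and 44.2% of the others at equal strength. Among the far regions, both lists met 20 of the 124 in the weakest bin (16.1%) and 81 of the 87 in the strongest (93.1%), where only 1 was met by neither. Of the far regions of 2 kb or more, which meet a rule of 1 bp more easily, 39 of 44 were met by both lists and 3 by neither, beside 769 and 15 of the 832 other regions that wide.

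**Figure D2:**
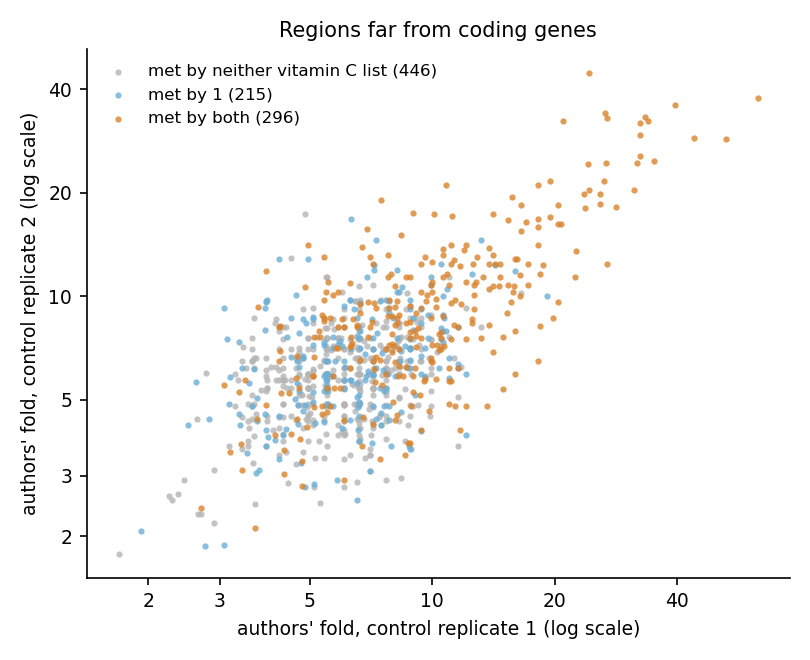
Each point is 1 of the 957 far regions, placed by the authors' fold of its best peak in control replicate 1 (horizontal, log scale) and control replicate 2 (vertical, log scale) and coloured by how many vitamin C lists met it. The 296 regions met by both lists make up nearly all of the upper right, and the 446 met by neither crowd at low folds.

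**Figure D3:**
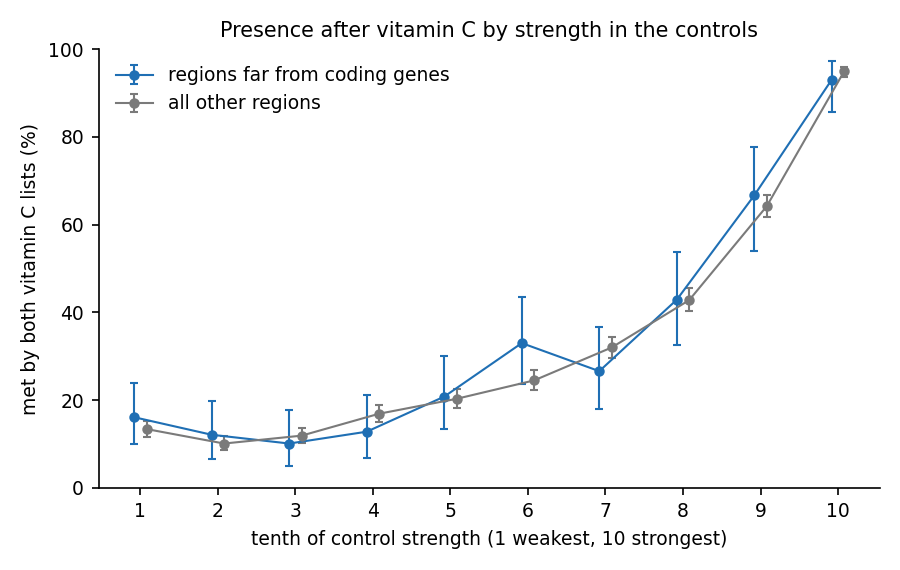
Percent of regions met by both vitamin C lists in each of 10 bins of control strength, for the far regions and for all other control regions, with 95% Clopper-Pearson intervals as bars. Both curves run from under 20% in the weakest bin to over 90% in the strongest (16.1% to 93.1% and 13.4% to 95%), and the intervals of the far regions hold the value of the other regions in each bin.

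By position, both vitamin C lists met 78 of the 226 regions inside lncRNA genes (34.5%, 28.3 to 41.1) and 218 of the 731 outside (29.8%, 26.5 to 33.3), while neither list met 46.5% and 46.6%. The difference of 4.69 points in regions met by both was 2.90 points in vitamin C replicate 1 alone and 1.98 in replicate 2 alone, and it turned to -0.65 when regions beside small RNA genes were kept. The regions inside had a median strength of 61.1 and those outside 54.0, and against other regions of equal strength the 2 classes were at 0.67 and 0.25 points for both lists, at -3.28 and -2.26 in vitamin C replicate 1 alone and at -0.90 and 0.90 in replicate 2 alone. Most regions outside, 597 of 731, lay over no annotated gene at all, and 28.8% of those were met by both lists. Of the others, 82 lay over a transcribed pseudogene (25.6% met by both), 23 over another pseudogene (43.5%) and 18 partly over a lncRNA gene (9 of them), and all 5 over a Y RNA gene or MASCRNA were met by both. The 207 far regions removed by the small RNA rule behaved otherwise, with 193 (93.2%) met by both lists at a median strength of 98.5. At the distance limit, 39 of 155 regions 5 to 6 kb from a gene (25.2%) and 95 of 277 regions 4 to 5 kb from one (34.3%) were met by both lists.

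Far regions were found mainly past the ends of genes. The strand is known here for 15812 of 19970 protein-coding genes, and for the 758 regions whose nearest gene has one, 516 lay past its end and 242 before its start. The share past the end was 68.1% (64.6 to 71.4), and among positions taken every 1 kb through the same far sequence it was 48.6%. It was lower at larger distances, from 80.7% at 5 to 10 kb through 62.7% at 10 to 20 kb and 53.6% at 20 to 50 kb to 48.8% at 50 to 100 kb and 52.4% beyond, where far positions gave 46.6%, 45.4%, 44.7%, 46.2% and 50.9%. Control regions closer in were past the end in 86.3% of cases at 2 to 5 kb and in 62.4% within 2 kb, where positions gave 48.0% and 49.8%. Regions inside lncRNA genes leaned less to that side (53.7%) than those outside (72.4%). Measuring the side was chosen after the data had been seen. Regions are not replicates, and no test was run on these shares.

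**Figure D4:**
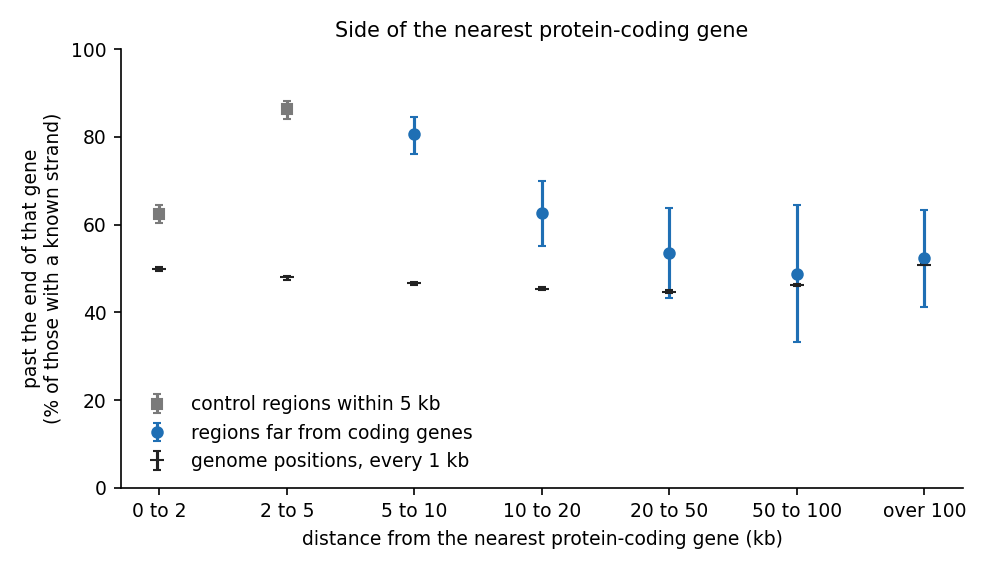
Percent of control regions and of genome positions that lie past the end of the nearest protein-coding gene, by distance in kb, among those whose gene has a known strand, with 95% Clopper-Pearson intervals. Far regions start at 80.7% at 5 to 10 kb and lie at 48.8% at 50 to 100 kb and 52.4% beyond, while genome positions stay between 44.7% and 50.9%.

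The genes beside these regions often held opened DNA themselves. Of 399 far regions within 20 kb past a gene's end, 61.4% had a control region inside that gene, compared with 51.9% of the 135 within 20 kb before a start. Of all protein-coding genes with a strand, 28.3% held one. The last share counts each gene alone, whereas the others count regions, so a gene beside several regions weighs more in them. The side was also taken in each library. Of the far peaks called in each library, 68.3% and 68.3% lay past an end in the controls, then 71.6% and 67.7% with vitamin C, a difference of 1.36 points that did not exceed the spread between libraries (exact p = 1). It was -0.579 without vitamin C replicate 1, and 2.84, 3.43 and 5.98 points for distance limits of 2, 10 and 20 kb, each at an exact p of 0.333. Both vitamin C lists met 31.6% of the regions past an end and 30.2% of those before a start.

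Single genes show how far past an end such regions lay. Whether the regions continue opening from these genes was not tested. The regions over the Y RNA genes RNY1 and RNY3, for example, were counted as past the end of PDIA4. The genes named in this paragraph were chosen after their values were seen. With 5 each, WDR4, a subunit of a tRNA methyltransferase, EFCAB12, YBX1, a Y-box nucleic acid binding protein, and NAA15, a subunit of an N-terminal acetyltransferase, had most far regions past their ends. The 5 regions at EFCAB12 all lay over the transcribed pseudogene RPL32P3, whereas those at WDR4, YBX1 and NAA15 lay over no annotated gene. Past WDR4 on chromosome 21 they ran from 5589 to 15377 bp beyond the end and covered 8830 bp. The region at chr21:42837305-42837704 had authors' folds of 32.5 and 25.5 in the controls, then 13.2 and 18.8 with vitamin C, and the widest, 6195 bp from chr21:42828194 on, had 20.4 and 16.2, then 12.1 and 9.62. Each fold is a peak's own value within its list and the lists were called separately, so folds of different libraries are given side by side and not compared. Of the 5 regions at WDR4, 3 were met by both vitamin C lists, 1 by 1 list and 1 by neither. Past YBX1 (chr1:42710465-42719021) the 5 regions lay 7153 to 14163 bp beyond the end, with 2 met by both and 2 by neither, and past NAA15 they lay 6675 to 16695 bp beyond, with 2 met by both and 1 by neither. Past RBMX, an RNA-binding protein of splicing, and AGFG1 all 3 regions each were met by both lists. In all, 276 genes had a region within 50 kb past their end, 209 of them 1 region.

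Far regions also came in chains. Joined across gaps of up to 5 kb they formed 658 groups, of which 497 were single regions and 161 held the other 460. The 2 with most regions held 11 each, at MIR222HG and between UQCRHL and SPEN, and the longest was the chain of 3 at XIST, with 39778 bp. The chain before the start of SPEN, a repressor that binds XIST RNA, spanned 20742 bp of chromosome 1 (chr1:15816102-15836843), of which 15895 bp were covered, and reached into SPEN-AS1. Of its 11 regions 4 were met by both vitamin C lists, 4 by 1 and 3 by neither. Among the last was chr1:15836059-15836843 in SPEN-AS1, with folds of 9.36 and 8.65 in the controls.

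Inside lncRNA genes, 144 genes held the 226 regions and 108 of them held 1. The largest numbers were in DLEU2 with 16, JPX, an activator of XIST, with 11, MIR222HG with 10, and LINC02951, FIRRE and NEAT1 with 6 each. Both vitamin C lists met 5 of the 16 in DLEU2 and neither met 9, and in JPX the counts were 4 and 7. MIR222HG kept 6 of 10 in both lists and lost 3 in both, LINC02951 kept 3 and lost 1, and FIRRE kept 1 and lost 4. NEAT1 kept 5 and lost 1. By strength the DLEU2 region under the printed promoter (chr13:50081612-50082433) was its highest, with folds of 16 and 12.8 in the controls, then 11.2 and 10.7 with vitamin C. The other kept regions of DLEU2 lay together between chr13:50033165 and chr13:50038737, while all the regions between chr13:50054037 and chr13:50080523 were met by neither list or by 1. All 4 regions of LINC00632, the gene that yields the circular RNA CDR1as, were met by neither list, and their strengths were between 0.179 and 30.5. In genes with a known strand, 19 of 179 inside regions lay within 1 kb of the start and 46 within 5 kb, so that most were in the gene body.

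**Figure D5:**
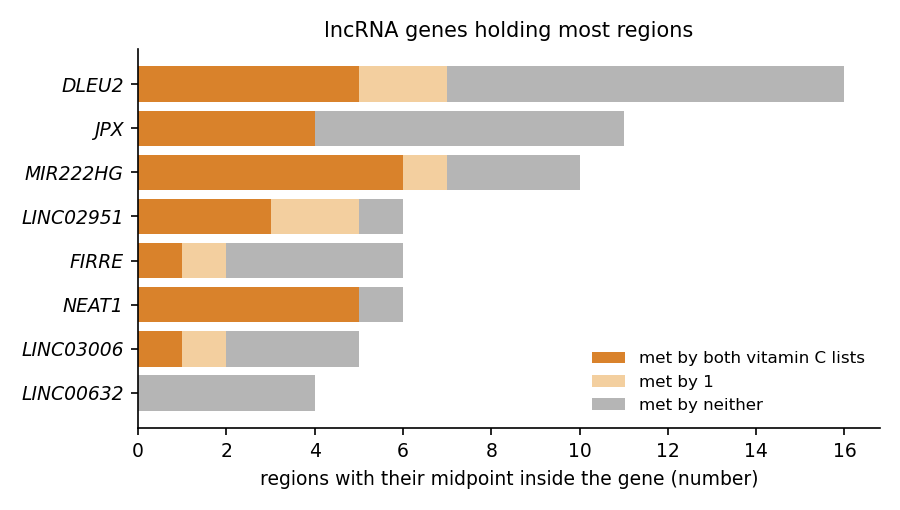
Number of far regions with their midpoint inside each of the 8 lncRNA genes that hold most, split by whether both, 1 or neither of the vitamin C lists met them. DLEU2 has 16 regions, of which 9 were met by neither list, whereas NEAT1 has 6, of which 5 were met by both.

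MIR222HG (chrX:45745214-45770267, minus strand) was covered over 39.1% of its length. The region under its promoter, chrX:45769167-45771126, was among the 3 farthest from any protein-coding gene, at 569271 bp, and had folds of 15.9 and 10.7 in the controls, then 7.22 and 8 with vitamin C. The region over MIR222 (chrX:45746346-45747127) had 4.23 and 6.94, then 6.26 and 8.54, and the next one, chrX:45745715-45746099, beyond MIR221, was met by neither list. A wide region, chrX:45741694-45745164, lay just past the end of the gene, with folds of 19.5 and 21.6, then 15.0 and 10.9. All 4 libraries thus held peaks just past the annotated end of MIR222HG, in a region separate from those inside the gene. Whether this region continues opening from the gene was not tested.

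A wide region was also seen at the end of MIR17HG (chr13:91347687-91354577, plus strand), the host of the miR-17 to miR-92a cluster. Its region chr13:91354447-91363963 began inside the gene, passed its end and was 9517 bp wide, with folds of 35.2 and 24.7 in the controls, then 16.3 and 16.6 with vitamin C. Within the gene, chr13:91349207-91350179 before the microRNAs was met by both lists, and the 2 regions after them, chr13:91351513-91352470 and chr13:91352912-91354159, by neither. The last had folds of 9.36 and 8.11 in the controls. Over lncRNA genes with a known strand, 54 regions outside lncRNA genes lay within 5 kb past an end and 28 within 5 kb before a start. The share past the end was 65.9% (54.6 to 76.0), an interval that holds the 55.4% of far genome positions. The lean toward the ends of protein-coding genes was not separated from it.

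The widest regions of all lay along or partly over XIST (chrX:73820656-73852714, minus strand), the lncRNA of X inactivation. Of the 3, 2 also lay over its antisense partner TSIX. The 3 regions were 15086, 12735 and 11023 bp wide and ran almost without a break from chrX:73813263 to chrX:73853040. All 4 libraries held peaks in each of the 3. The strongest, chrX:73813263-73824285, lay only partly over XIST and passed its annotated end. It had folds of 63.3 and 37.8 in the controls, then 42.2 and 22 with vitamin C, above the 95th percentile of each list. KAS-seq peaks carry no strand, so opening by XIST and by TSIX cannot be told apart in those 2, and chrX:73840306-73853040 overlaps XIST alone. In the neighbouring JPX, 7 of 11 regions were met by neither vitamin C list.

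In a list labelled nuclear or imprinted lncRNAs, 10 of the 17 genes that lie far from coding genes had a far region within 1 kb. These include DLEU1, NORAD, OIP5-AS1 and PURPL, so the counts do not stand for nuclear or imprinted lncRNAs alone. The 41 regions at these 10 genes were met by both vitamin C lists in 19 cases and by neither in 20, with a median strength of 55.6. Of all control regions 33.1% were met by both lists and 42.0% by neither, which are the shares to set beside the lists that follow. This list does not hold XIST. The strongest region of its genes was chr11:65422591-65423216 at NEAT1, the scaffold of paraspeckles, with folds of 33.4 and 33.3 in the controls, then 13.2 and 28.2 with vitamin C. MALAT1 kept both of its regions in both lists. The region at the end of MALAT1, chr11:65505680-65508701, covers MASCRNA, the small RNA cut from that end, and had folds of 24.3 and 20.3, then 17.9 and 10.7. All 3 regions of OIP5-AS1 and the 1 at HOTAIR were met by neither list.

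Hosts of microRNAs and of snoRNAs were counted apart. Of 20 far microRNA host genes 5 had a region, and 15 of their 35 regions were met by both lists and 16 by neither. The strongest was the 5177 bp region chr9:94179155-94184331 in MIRLET7A1HG, the host of let-7a-1, let-7f-1 and let-7d. It had folds of 32.5 and 29.5 in the controls, then 24.4 and 9.39 with vitamin C. The same region also lies in LINC02603 on the opposite strand, so opening by the 2 genes cannot be told apart. Of 10 far snoRNA host genes 7 had a region, and 6 of their 11 regions were met by both lists and 1 by neither, with a median strength of 85.6. The strongest of these, chr20:38415166-38421381 at SNHG17, was 6216 bp wide and had folds of 25.9 and 18.6, then 12.3 and 11.6. Whether these lists differ from other regions was not tested.

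RNA polymerase III genes other than tRNA genes gave 16 regions within 1 kb of 15 genes, of which 8 were met by both lists and 3 by neither. These include the 7 regions between 5S genes described below. All 3 met by neither were among those 7, and no region met by both was. Regions over the Y RNA genes RNY1, RNY3, RNY4 and RNY5 and over the vault RNA genes VTRNA1-2 and VTRNA1-3 were met by both lists. RNY3 (chr7:148983407-148984196) had folds of 44.2 and 28.8 in the controls, then 17.7 and 37.7 with vitamin C. VTRNA1-3 (chr5:140725702-140726777) had 32.4 and 31.9, then 21.5 and 26.7. The region over RN7SL2, a gene of the signal recognition particle RNA, held fold percentiles of 80.7 and 44.0 in the control lists and of 98.9 and 96.1 in the vitamin C lists. Ranks in lists of such unequal length show no change by themselves.

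The 5S ribosomal RNA genes gave a different picture. In their tandem array on chromosome 1, 17 annotated genes follow each other at a median spacing of 2241 bp, with 7 narrow far regions between them and 1 before the first, all of 230 to 261 bp. For the 7 between genes, the region began 634 to 674 bp past its end, so it fell at nearly the same point of each repeat and not over the 5S gene. Control folds were between 3.64 and 4.81. Vitamin C replicate 2 met 5 of the 8 and replicate 1 met none, so that no region was met by both. Repeat copies are nearly alike, and reads of one may not be told from reads of another, so the 8 may count 1 signal several times. Neither the 16 listed genes of the large ribosomal RNA repeat nor the 355 nuclear copies of mitochondrial genes that lie far from coding genes had a far region within 1 kb.

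Among the regions met by neither list, the strongest inside a lncRNA gene was chr5:88675474-88676142 in MIR9-2HG, under the printed MEF2C-AS2 promoter, with folds of 11 and 11.4. The others of the strongest 5 inside lay in LOC124905259 (8.80 and 9.37), SPEN-AS1, LOC105371814 (11 and 7.63) and MIR17HG. Outside lncRNA genes the strongest was chr1:32612501-32612842, which lay 6731 bp past the end of ZBTB8A with folds of 16.5 and 10.2. Next came chr1:114385347-114386506 past the end of TRIM33 (12.1 and 9.25), chr15:50360817-50361802 before the start of GABPB1 (13.2 and 8.11), chr15:84197416-84197854 over the pseudogene LOC440300 (9.91 and 8.81) and chr7:67324908-67325715 past SPDYE21 (8.67 and 10.2). The control strengths of these 10 were between 82 and 92.9. The 10 strongest regions inside and the 10 strongest outside lncRNA genes, with strengths of 97.3 to 99.8, were all met by both vitamin C lists.

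The same was done from the vitamin C side. Merged vitamin C peaks gave 351 far regions found in both vitamin C libraries, of which 332 (94.6%, 91.7 to 96.7) were met by both controls, 16 by 1 control and 3 by neither. Of all 5834 regions found in both vitamin C libraries, 94.4% were met by both controls. With lists of equal length the shares were 72.6% of the far and 73.8% of all vitamin C regions. The 3 met by neither control were chr6:140883726-140884061, which overlaps the lncRNA genes LOC102723724 and LOC124901413 and had folds of 4.99 and 4.88, chr7:158616670-158616892, 14388 bp from NCAPG2 (5.46 and 4.87), and chrX:52937488-52937812, 9604 bp from FAM156A (7.48 and 6.41). Each rested on 11 to 18 fragments at its summit. In the same LOC102723724, chr6:140844106-140844421 was a control region met by neither vitamin C list, with folds of 9.29 and 7.23.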

How the data were processed

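KAS-seq peak lists of 4 labelled HEK293T libraries were used, 2 control and 2 vitamin C. MACS2 2.2.7.1, Bowtie2 2.4.5, deepTools, cutadapt, Trim Galore and bcl2fastq 2.19 are named, with the build hg38 and no settings, per the submitters' processing notes. Each library has its own deposited list, in which the authors give every peak a fold over background (a ratio), a −log10 p and a −log10 q. Peaks on other sequences than chromosomes 1 to 22 and X (4.23% to 5.06% of a list) were left out.

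The regions, the gene lists and the rule for named regions (the 10 strongest inside and outside lncRNA genes, the 5 strongest lost in each class, the 5 widest, the 5 fullest lncRNA genes, the strongest of each list, the 3 farthest, and all found only with vitamin C) were chosen with earlier results of these data known. Genes come from a RefSeq table (GRCh38.p14, the build of hg38), strands from its promoter table, and sequences from RefSeq. Libraries were compared by exact two-sided permutation. Depth was solved from each peak's fold and p with a tolerance of 0.005. In vitamin C replicate 1 this needed a scale of 0.776. Python 3.11.15, numpy 2.4.6, pandas 2.3.3 and scipy 1.17.1 were used, and the steps were tested on simulated lists.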

Additional observations from a re-analysis of the deposited data

How the results depend on the processing

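The lower number and covered length of far peaks with vitamin C kept their direction under every alternative run except lists of equal length, where the log2 ratio of peak numbers was 0.01, since the lists then hold the same number of peaks, and that of covered length -0.59. With equal lists the share of far peaks also turned, to 0.0357 points, both vitamin C lists met 63.4% and neither met 16.1% of the control regions then found (beside 65.4% and 13.3% of all regions), inside exceeded outside lncRNA genes by 6.48 points, and 72.6% of vitamin C regions were met by both controls. Keeping the small RNA genes' regions turned the share to 0.733 points, the width difference to 43 bp and the past-end difference to -1.16 points. It also turned the inside-outside difference to -0.65, with 42% met by both and 38.9% by neither (beside 33.1% and 42.0% of all regions). The distance limit moved the composition: at 2, 10 and 20 kb, 17%, 31.8% and 37.1% lay inside lncRNA genes and 78.9%, 56.9% and 52.2% past a gene's end. At 20 kb the share turned to 0.0158 points. The inside-outside difference was 0.25 points at 2 kb, 7.50 at 20 kb, 7.06 with any base in a lncRNA gene and 3.56 without regions near RNA polymerase III genes. A −log10 q of at least 5 left 42.4% met by neither (beside 39.5% of all regions). An overlap of 50% of the region gave 14.7% met by both, a little under the share of all regions. It gave 65.1% met by neither (beside 61.9% of all regions) and 90% of vitamin C regions met by both controls. The cause of these changes was not tested.

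Leaving out 1 library at a time gave a log2 ratio of far peaks between -1.73 and -1.39 and of covered length between -1.68 and -1.43, a share difference between -0.8 and -0.141 points, a width difference between -19 and 5 bp and a past-end difference between -0.579 and 3.29 points. The share met by both ran from 16.2% to 42.7% and by neither from 57.3% to 69.7%, since 1 list then decides presence or membership. Over all regions these shares ran from 17.7% to 46.4% and from 53.6% to 65.3%. The inside-outside difference ran from 1.98 to 4.06 points, the difference at equal strength from -2.50 to 0.47, and the vitamin C regions met from 75.7% to 98%. With the replicate number as a block the log2 ratio of far peaks was -1.56. In this balanced design the blocked share, width and past-end differences equal the unblocked ones, so their unchanged directions are no separate check. The replicate numbers share no stated source, and 2 pairs (correlation 0.11 over 296 regions) do not settle a pairing. Of 35 named regions, 34 kept their class at a −log10 q of at least 5 and 32 at 50% overlap. All 35 kept theirs at a −log10 p of at least 5 and with equal lists. Of the vitamin C lists, equal length cut only replicate 2, from 9896 to 9816 peaks. Regions met by neither list could not change under these settings. Each of the 35 was met by both lists or by neither, so leaving out 1 vitamin C library could not change a class. The side of the nearest gene and the named-region checks were added after seeing the data. The median far region rested on 17 and 16 fragments in the controls, and whether regions not met lie just under a list's threshold was not tested.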

Other observations

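Far regions were spread unevenly over the chromosomes. They made up 15.0% of the control regions of chromosome X, 14.8% of chromosome 13, 13.2% of chromosome 7 and 11.4% of chromosome 21, and 1.90% of those of chromosome 19. On chromosome X, 38 of the 77 far regions lay inside lncRNA genes, and on chromosome 7, 20 of 105 did. On chromosome 21 a chain of 8 regions (chr21:8988169-9001534) lay over no annotated gene, and 4 of the 8 were met by both vitamin C lists and 3 by neither.

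Some far regions lie in repeated sequence. The promoter windows of LOC124901672 and LOC124901677 on chromosome 7 have the same 300 bases, the only such pair among the 27 windows under regions, and reads of one cannot be told from reads of the other. Both of their regions were met by both vitamin C lists.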
